A study of Mus musculus with 4 samples.

Results

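The Cx3cr1 locus on mouse chromosome 9 was described from 4 lists of ATAC-seq peaks in sorted microglia. It held 50 of the 155546 regions found in the whole data set. The locus was chosen by its measured values, namely which peaks were listed in each library and how high they were, so its levels are given as a description with no test. Its members were all deposited peaks that overlapped the Cx3cr1 gene body in the GENCODE M21 annotation or the 50 kb on either side. On the GRCm38 build the gene body is chr9:119901616-120069879, on the minus strand, and the window is chr9:119851616-120119879, or 268 kb. The lists held 52 and 60 peaks there for the pair of WT libraries, and 54 and 49 for the IRF8KO pair (here and below, replicate 1 is given before replicate 2).

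The cells were microglia sorted by flow cytometry from untreated C57BL/6 mice aged 3 months, after an isolation of the brain tissue without enzymes. There were 2 libraries of genotype WT and 2 of genotype IRF8KO, and the comparison asks how accessible chromatin differs in the absence of IRF8, a transcription factor of macrophages. The labels do not describe the IRF8KO allele, and they speak of a brain without saying whether replicates came from separate mice. The spread between replicates may therefore be technical.

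Cx3cr1 encodes the receptor for fractalkine (Cx3cl1), a chemokine that neurons carry on their surface and shed. In the brain the receptor is found mainly on microglia, where its signal takes part in surveillance and in the exchange between neurons and microglia, and its locus is widely used to label these cells. In ATAC-seq a transposase cuts where DNA is not packed into nucleosomes, so that promoters and enhancers in use stand out as peaks of cut sites. IRF8 binds DNA poorly alone and commonly does so with PU.1, an ETS-family factor, at composite sites that join an ETS and an IRF half-site.

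The extent of the gene depends on the annotation. The RefSeq gene spans 19.6 kb (chr9:120048683-120068296), with the coding sequence in its last exon and its start at position 120068296. The GENCODE gene is 168 kb long because 1 transcript ends in an exon of 12 bp far downstream, so that Wdr48, Gorasp1, Ttc21a, Csrnp1 and Xirp1 overlap or lie within the window as well. Distances below are from the RefSeq start. Downstream means the direction of Cx3cr1 transcription, and regions are numbered from 1 to 50 along the chromosome, from the far downstream end to the upstream end.

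Peaks whose deposited −log10 q reached 2 are called strict, and strict peaks that overlapped, whichever library they came from, formed 1 region. The level of a region in a library is the pileup at its highest summit, the number of extended cut sites stacked there, divided by that library's tags and multiplied by 1000000, a unit written as PPM. Shared regions had a strict peak in all 4 libraries.

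The sequences of the regions on which the results turn are shown first, read from the GRCm38.p6 genome on the plus strand, 5′ to 3′. Capitals mark matches on either strand to 1 of 8 motifs: ETS-IRF (GGAA and GAAA separated by any 2 bases), ISRE (GAAA and GAAAC separated by any 2 bases), PU.1 (GAGGAAGT), AP-1 (TGACTCA), CEBP (TTGC and AA separated by any 2 bases), RUNX (TGTGGTTT), MAF (TGCTGAC) and E-box (CACGTG). The ETS-IRF and PU.1 motifs share the GGAA core and can overlap, as can ETS-IRF and ISRE. A match describes the letters and shows neither a bound factor nor a cause.

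Regions 27 and 30 lay between the Cx3cr1 3′ end and the next gene body downstream, Xirp1. Among shared regions near the gene they had the largest opposite differences in PPM. They are shown within 100 bp of their summits, at chr9:120034452-120034652 and chr9:120043290-120043490. Region 27 held 2 MAF matches in opposite orientation, at -32 and 28 bp from its summit, and region 30 held 1 CEBP match on the minus strand.
Region 27: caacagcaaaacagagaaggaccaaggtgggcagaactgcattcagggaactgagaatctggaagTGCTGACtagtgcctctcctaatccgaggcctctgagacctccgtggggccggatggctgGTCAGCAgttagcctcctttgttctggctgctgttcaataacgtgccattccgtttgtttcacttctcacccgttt
Region 30: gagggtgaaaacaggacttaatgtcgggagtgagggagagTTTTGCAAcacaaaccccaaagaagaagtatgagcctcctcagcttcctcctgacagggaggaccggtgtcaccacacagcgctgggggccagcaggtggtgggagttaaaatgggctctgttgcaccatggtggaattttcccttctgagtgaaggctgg

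Regions 16 and 50 held the only ETS-IRF matches within 100 bp of a summit in the window, at chr9:119978360-119978369 and chr9:120118398-120118407, both on the plus strand. Region 50 is shown within 100 bp of its summit, at chr9:120118263-120118463. Of region 16, which overlaps a predicted RefSeq exon of Csrnp1, only the match with 10 bp on each side is shown.
Region 16: caccatcacaGGAAGTGAAAgaggcaggaa
Region 50: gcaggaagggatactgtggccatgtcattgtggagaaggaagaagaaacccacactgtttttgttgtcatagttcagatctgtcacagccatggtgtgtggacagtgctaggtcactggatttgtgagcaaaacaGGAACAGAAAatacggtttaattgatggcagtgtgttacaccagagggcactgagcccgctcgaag

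Region 38, in the first intron of Cx3cr1, was the highest region of the window in WT replicate 1, and region 44 had the lowest ratio of IRF8KO to WT among the shared regions upstream. Both are shown within 100 bp of the summit, at chr9:120058834-120059034 and chr9:120083216-120083416. Region 38 held a PU.1 match on the minus strand, 21 bp from its summit, and region 44 an E-box 3 bp from its summit.
Region 38: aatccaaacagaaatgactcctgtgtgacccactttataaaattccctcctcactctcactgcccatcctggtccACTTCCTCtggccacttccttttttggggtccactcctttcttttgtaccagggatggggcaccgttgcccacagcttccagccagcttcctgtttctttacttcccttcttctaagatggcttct
Region 44: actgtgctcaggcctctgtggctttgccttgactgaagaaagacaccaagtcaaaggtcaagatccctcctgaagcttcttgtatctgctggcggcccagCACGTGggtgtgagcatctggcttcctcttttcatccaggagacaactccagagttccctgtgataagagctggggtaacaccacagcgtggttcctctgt

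Regions 4 and 34 lie in annotated untranslated exons, so only the motif match with 11 bp on each side is shown, at chr9:119925404-119925431 and chr9:120049593-120049621. Region 4 held an E-box and region 34 an AP-1 match.
Region 4: agcctgcgcagCACGTGgacctgcaggc
Region 34: tgtgggggataTGACTCAgtctgtctgtc

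The WT libraries had 46948938 and 48896408 tags of 50 bp, and the IRF8KO libraries 78793572 and 66224648 tags of 49 bp, so that mean depth was 1.51 times as high in IRF8KO. Depth and tag length thus followed genotype, and their part in any difference below cannot be told apart from it. Over all 48262 shared regions the median difference in PPM was -0.30 on the log2 scale (IRF8KO minus WT). Values are therefore also given relative to each library's own median pileup over shared regions, called relative pileup, which removes this shift. The Irf8 promoter region held 2.07 and 1.49 PPM in WT and 0.863 and 1.36 in IRF8KO. Peaks there do not check the deletion. Of 7 microglia marker genes, all had a strict promoter region and 6 had one strict in all 4 libraries, with summed levels of 19.9 and 14.8 PPM for WT and 8.03 and 12.9 PPM for IRF8KO. The monocyte markers Ly6c2 and Ccr2 had no region. Of 3 endothelial markers, all had a region, and the summed level was 5.54 to 6.73 in WT and 0.926 to 1.34 in IRF8KO, most of it at Cdh5. Of 3 markers of border macrophages, 2 had a region and Lyve1 had none, with 0.286 to 0.341 in WT and 1.09 to 2.23 in IRF8KO. The summed levels of 3 markers each were also lower in both IRF8KO libraries for neutrophils (0.614 to 1.19 in WT, 0.178 to 0.453 in IRF8KO), oligodendrocytes (1.68 to 2.04 and 0.495 to 1.15), neurons (0.682 to 0.859 and 0.343 to 0.468) and B or T cells (0.225 to 0.234 and 0 to 0.140). Those of astrocytes overlapped, at 0.184 to 0.511 in WT and 0.254 to 0.287 in IRF8KO. Markers of other cells thus moved with genotype, and their part in the results was not tested. In bulk nuclei, fewer cells with an open region and less opening per cell cannot be told apart.

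The window was densely populated by open chromatin in both genotypes, and most of its regions were open in all libraries. It held 18.6 regions per 100 kb, against a median of 9.71 over the equivalent windows of 21728 protein-coding genes, and 86.4% of those genes had fewer. Of the 50 regions, 30 were shared, 2 were WT-specific and 3 IRF8KO-specific. In the whole data set 48262 of 155546 regions were shared. Genotype-specific means strict in both libraries of that genotype, with no peak of any strength listed in the other 2. Among all merged regions 5.58% were WT-specific and 3.86% IRF8KO-specific, so 2 and 3 of 50 are shares close to the background. These small counts moved with the settings, to 1 and 1 at −log10 q of 5 and to 5 and 5 with every deposited peak. Without WT replicate 2 the WT-specific count was 7, and without IRF8KO replicate 2 it was 4. The other 15 had mixed patterns, and 9 of the 50 had a strict peak in 1 library only. The genome-wide share of such single-library regions is not given here. A further 26 regions held only weaker peaks, 22 of them in a single library, none higher than 0.447 PPM.

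The window held 47 and 44 strict peaks in the WT lists and 39 and 40 in the IRF8KO lists. Every WT library therefore held more than either IRF8KO library, although the latter were deeper. As a share of all strict peaks of a library the counts overlapped, at 0.0482% and 0.0445% for WT and 0.0464% and 0.0417% for IRF8KO. WT averaged 45.5 ± 2.12 and IRF8KO averaged 39.5 ± 0.707 (SD, n = 2 per genotype). Their covered length was 13342 and 11559 bp for WT and 13708 and 13735 bp for IRF8KO, so fewer peaks did not mean less covered sequence. At −log10 q of 5 the mean difference narrowed from -6 to -2.5 peaks. Just inside the upstream edge of the window lay region 50, described below, and the next region outside, 7.51 kb beyond the edge, held 3.47 and 2.78 PPM in WT and 2.23 and 2.51 in IRF8KO. The nearest one beyond the downstream edge, at a distance of 7.78 kb, was listed in IRF8KO replicate 2 alone, at 0.227 PPM.

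**Figure D1:**
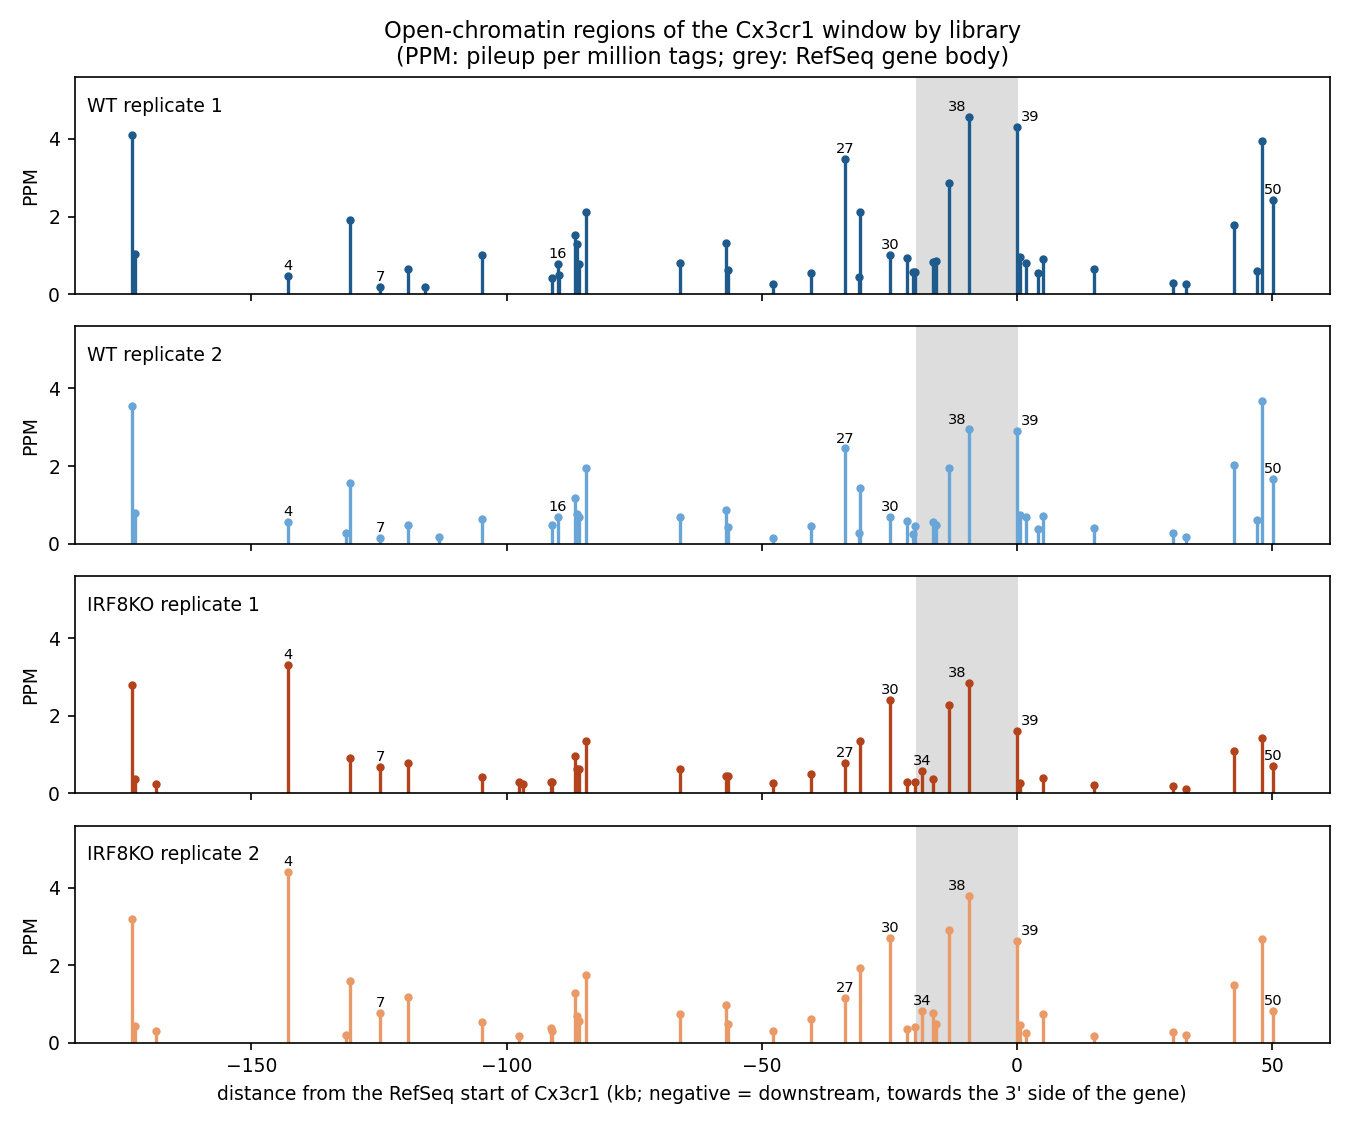
PPM (vertical axis) at the highest summit of each of the 50 regions against distance from the RefSeq start of Cx3cr1 in kb (horizontal axis), with 1 panel per library and no line where a library listed no peak. The grey band is the 19.6 kb RefSeq gene body and numbers are region numbers; region 4 stands at 0.469 and 0.552 in WT and at 3.31 and 4.41 in IRF8KO, and region 27 at 3.49 and 2.45 in WT and 0.774 and 1.15 in IRF8KO.

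Across the 30 shared regions, IRF8KO was lower more often than higher. Both IRF8KO libraries lay below both WT libraries at 15 regions and above both at 3, and the groups overlapped at 12. Of all shared regions in the genome, 36.7% were lower and 11.2% higher by the same rule. On relative pileup the counts were 11 lower and 5 higher, against 28.9% and 29.9% of all shared regions, and on deposited fold enrichment 12 lower and 6 higher, against 30.1% and 17.8%. The median log2 difference in the window was -0.46 in PPM, -0.16 on relative pileup and -0.12 on fold enrichment, against genome medians of -0.30, 0.0013 and -0.10. The single differences spanned a far wider range, from -1.64 to 2.91 in PPM.

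**Figure D2:**
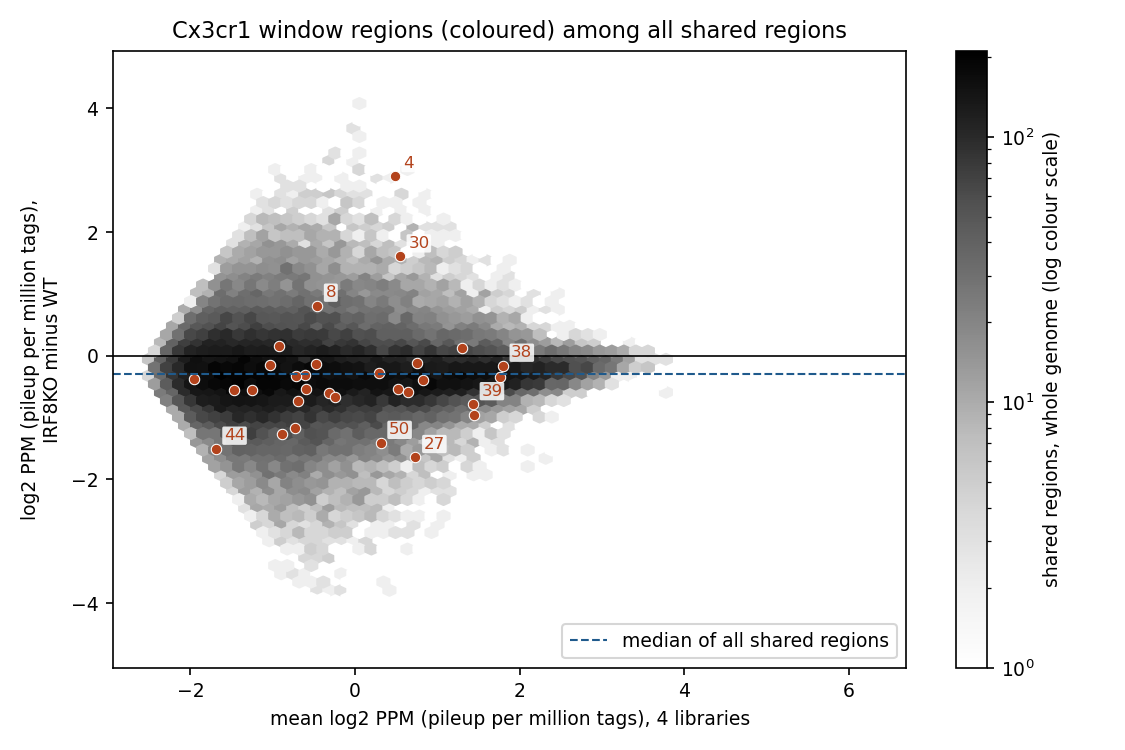
Difference in log2 PPM, IRF8KO minus WT (vertical axis), against the mean log2 level over the 4 libraries (horizontal axis) for 48262 shared regions (grey, darker where more regions lie, log colour scale) and the 30 of the Cx3cr1 window (coloured, some numbered). Most window regions lie near the dashed genome median of -0.30, while regions 4 and 30 lie far above it and regions 27, 44 and 50 below it.

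At the Cx3cr1 promoter (region 39, chr9:120068115-120068528, over the first exon) the pileup was lower in IRF8KO, but the direction depended on the scale. It held 4.30 and 2.90 PPM in WT and 1.61 and 2.63 in IRF8KO. Both IRF8KO libraries were below both WT libraries, and IRF8KO replicate 2 was close to WT replicate 2. The means were 3.60 ± 0.989 and 2.12 ± 0.718 PPM (SD, n = 2 per genotype), and the log2 difference was -0.78 in PPM, -0.48 on relative pileup and 0.11 on fold enrichment. The deposited fold enrichments were 19.9 and 16.4 in WT and 18.8 and 20.2 in IRF8KO and overlapped between the groups. The same region is the highest strict one within 1 kb of a start of the antisense RNA Gm33858.

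Among 12547 protein-coding promoters strict in all 4 libraries, the Cx3cr1 promoter ranked at percentile 75.8 and 64.1 in WT and at 52.9 and 58.2 in IRF8KO. It stood above the median promoter in every library. Its neighbour region 40 (chr9:120068782-120069019), 0.561 kb upstream over an alternative untranslated exon of Cx3cr1 and an exon of the antisense RNA Gm33858, held 0.958 and 0.736 in WT and 0.267 and 0.453 in IRF8KO, 2.42-fold lower in IRF8KO. That difference shrank to a log2 value of -0.40 on fold enrichment, with the groups still apart. Region 41 (chr9:120069830-120070018), 1.66 kb upstream over the GENCODE start of Cx3cr1, held 0.809 and 0.695 PPM in WT. In IRF8KO it was unlisted in replicate 1 and had a weak peak of 0.257 in replicate 2. With that single IRF8KO value, its log2 difference was -1.55 in PPM, -1.57 on relative pileup and -0.96 on fold enrichment. None of the 8 motifs matched in the 250 bp upstream of the RefSeq start. In that window CEBP matched in 9.56% and ETS-IRF in 2.30% of 32851 RefSeq promoters.

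Inside the gene, the high regions of the first intron overlapped between the genotypes in PPM. Region 38 (chr9:120058635-120059175, 9.36 kb downstream of the start) held 4.56 and 2.95 PPM in WT and 2.84 and 3.79 in IRF8KO. Region 37 (chr9:120054667-120055453, 13.3 kb downstream), with a RUNX match, held 2.85 and 1.94 for WT and 2.27 and 2.91 for IRF8KO. The log2 differences in PPM were -0.16 and 0.13, smaller than the difference at the promoter. At both regions IRF8KO replicate 2 was above WT replicate 2.

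Within the RefSeq gene body as a whole, 4 of 6 regions were shared, 1 was lower in IRF8KO and none was higher in PPM, with a median log2 difference of -0.24. These few counts changed with the scale. On relative pileup 1 was lower and 1, region 37, was higher, against 28.9% and 29.9% of all shared regions. On fold enrichment none was lower and region 37 was higher, against 30.1% and 17.8%. Over all shared regions 36.7% were lower and 11.2% higher in PPM. The IRF8KO-specific region 34 (chr9:120049440-120049716) lies in the 3′ untranslated part of the last Cx3cr1 exon. It held 0.584 and 0.831 PPM in IRF8KO and was not listed in either WT library. The lowest summits that the WT lists held within 10 kb were 0.426 and 0.245, so a WT level below these values may have gone unlisted. This region carried the AP-1 match shown above, 12 bp from its summit.

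Region 36 (chr9:120052297-120052487) straddles the start of the coding exon and the intron before it, where 3 E-boxes recur at a distance of 54 bp within tandem copies of 79.6% to 88.9% identity. It is shown here for that repeat, from the first intronic base, at chr9:120052344-120052532. Its level was 0.852 and 0.470 in WT and 0.483 in IRF8KO replicate 2, with no peak listed in IRF8KO replicate 1. In PPM the single IRF8KO value lay between the WT values. On relative pileup and fold enrichment it lay below both, with log2 differences of -0.41 and -0.45.
Region 36: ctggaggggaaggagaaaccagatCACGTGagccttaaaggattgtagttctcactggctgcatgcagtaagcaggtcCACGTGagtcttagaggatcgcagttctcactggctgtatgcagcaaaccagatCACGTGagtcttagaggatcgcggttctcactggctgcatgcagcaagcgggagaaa

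Among shared regions close to the gene, the largest differences in PPM lay just beyond its 3′ end. They had opposite directions, with summits 8.84 kb apart. Region 27 (chr9:120034363-120034746, 33.7 kb downstream of the start) held 3.49 and 2.45 PPM in WT and 0.774 and 1.15 in IRF8KO. Region 30 (chr9:120043043-120043589, 24.9 kb downstream) held 1.001 and 0.695 for WT and 2.40 and 2.70 for IRF8KO. The groups stood well apart at both, and on each of the 3 scales.

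Region 27 averaged 2.97 ± 0.735 PPM for WT and 0.961 ± 0.264 for IRF8KO (SD, n = 2 per genotype), 3.11-fold lower in IRF8KO in PPM and 2.52-fold lower on relative pileup, with a log2 difference of -1.01 on fold enrichment. In the genome 1768 of 48262 shared regions had a lower ratio of IRF8KO to WT. Region 30 averaged 0.848 ± 0.216 PPM for WT and 2.55 ± 0.215 for IRF8KO, 3.05-fold higher in IRF8KO in PPM and 3.77-fold higher on relative pileup, and 793 shared regions had a higher ratio. Between them, region 29 (chr9:120037439-120037919) held 2.13 and 1.43 in WT and 1.35 and 1.93 in IRF8KO and overlapped between the groups. On fold enrichment region 29 was higher in both IRF8KO libraries, with a log2 difference of 0.47.

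Small regions between region 30 and the 3′ end were lower or unlisted in IRF8KO. Region 31 (chr9:120046620-120046840) held 0.937 and 0.593 in WT, and only weak peaks of 0.279 and 0.347 in IRF8KO. Region 33 held 0.575 and 0.450 in WT and 0.292 and 0.408 in IRF8KO. Region 32, and region 28 between regions 27 and 29, were listed in both WT libraries, strictly in replicate 1 alone, and in neither IRF8KO library. Over the 50 kb downstream of the RefSeq gene, 8 of 12 regions were shared, 2 were lower and 1 higher in PPM, against 36.7% and 11.2% of all shared regions, with a median log2 difference of -0.14. The counts were 2 and 2 on relative pileup, against 28.9% and 29.9%, and 3 and 2 on fold enrichment, against 30.1% and 17.8%.

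**Figure D3:**
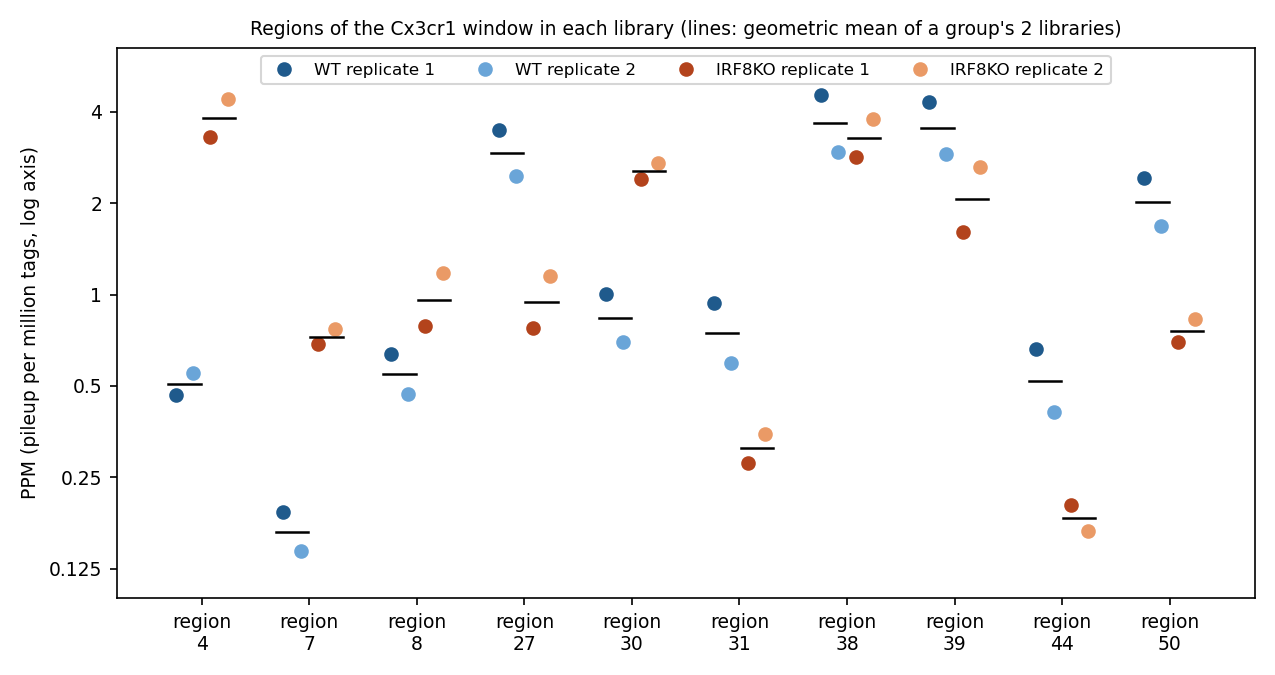
PPM (vertical log axis) of 10 regions in each of the 4 libraries (points), with lines at the geometric mean of the 2 libraries of a genotype. WT points lie below IRF8KO points at regions 4, 7, 8 and 30, above them at regions 27, 31, 39, 44 and 50, and among them at region 38.

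Upstream of the start, towards the chemokine receptor gene Ccr8 and the mitochondrial carrier gene Slc25a38, shared regions were mostly lower in IRF8KO in PPM. Of 11 regions 7 were shared, and 5 of these were lower in both IRF8KO libraries, with a median log2 difference of -0.97 in PPM, against 36.7% lower among all shared regions. None was higher in PPM, against 11.2%. On relative pileup 5 were lower and none higher, against 28.9% and 29.9%. On fold enrichment 3 were lower and 1, region 43, was higher, against 30.1% and 17.8%. The intergenic region nearest the start, region 42, lay 4.01 kb upstream and was listed in WT alone, at 0.554 and 0.368. Its neighbour, region 43, held 0.895 and 0.716 in WT and 0.406 and 0.740 in IRF8KO and overlapped between the groups. Region 44 (chr9:120083189-120083464, 15.0 kb upstream) held 0.660 and 0.409 in WT and 0.203 and 0.166 in IRF8KO, 2.83-fold lower in IRF8KO. It was a low region in every library, but its groups did not overlap, and on fold enrichment its log2 difference was -1.27.

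At the far upstream edge, within Slc25a38, region 50 (chr9:120118235-120118586, 50.1 kb upstream) held 2.43 and 1.68 in WT and 0.698 and 0.831 in IRF8KO. It was 2.65-fold lower in IRF8KO in PPM, with a log2 difference of -1.10 on relative pileup and -0.56 on fold enrichment. Region 49 (chr9:120116091-120116526), over a coding exon of the same gene, held 3.94 and 3.68 in WT and 1.42 and 2.67 in IRF8KO, but its fold enrichments overlapped. The WT-specific region 48 (chr9:120115279-120115475) held 0.596 and 0.614 in WT. The lowest summits listed within 10 kb of it were 0.152 in IRF8KO replicate 1 and 0.453 in replicate 2. The level needed for listing depends on the background at each site. The absence is therefore bounded only loosely in both libraries. The Slc25a38 promoter itself (region 47) held 1.79 and 2.02 in WT and 1.08 and 1.49 in IRF8KO, and overlapped on relative pileup. Ccr8, which is expressed mainly by subsets of T cells, had no strict region within 1 kb of its starts.

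Far downstream, among other genes, 21 regions lay more than 50 kb beyond the RefSeq gene, of which 11 were shared, 7 lower and 2 higher in IRF8KO in PPM, against 36.7% and 11.2% of all shared regions. On relative pileup, which removes the shift between libraries, 3 were lower and 2 higher, against 28.9% and 29.9%, and on fold enrichment 6 were lower and 2 higher, against 30.1% and 17.8%. The largest difference of the whole window was there. Region 4 (chr9:119925124-119925665, 143 kb downstream of the Cx3cr1 start) lies where the 3′ untranslated exons of Wdr48, a cofactor of deubiquitinating enzymes, and of Gorasp1, a Golgi stacking protein, overlap tail to tail. It held 0.469 and 0.552 PPM in WT and 3.31 and 4.41 in IRF8KO. In both IRF8KO libraries it was the highest region of the window, above the Cx3cr1 promoter and first intron, whereas in WT it ranked 36 and 26 from the top among the 43 regions listed in each library.

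It averaged 0.510 ± 0.0591 PPM for WT and 3.86 ± 0.776 for IRF8KO (SD, n = 2 per genotype), 7.51-fold higher in IRF8KO in PPM and 9.27-fold on relative pileup. On fold enrichment it was 2.89-fold higher, and with the mean over its summits in place of the highest 4.54-fold. Of 48262 shared regions, 67 had a higher ratio of IRF8KO to WT in PPM. Farther along, regions 7 and 8 were also higher in IRF8KO, at lower levels. Region 7 (chr9:119943393-119943899), over a coding exon of Ttc21a, a cilium protein gene, held 0.192 and 0.143 in WT and 0.685 and 0.770 in IRF8KO, 4.39-fold higher, and was not strict in WT replicate 2. Region 8 (chr9:119948847-119949258), in a Ttc21a intron, held 0.639 and 0.470 in WT and 0.787 and 1.18 in IRF8KO, 1.76-fold higher. The promoter shared by Gorasp1 and Ttc21a (region 6), which lies between regions 4 and 7, held 1.92 and 1.55 in WT and 0.901 and 1.59 in IRF8KO and overlapped between the groups.

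Around Csrnp1, a nuclear protein gene of the cysteine-serine-rich family, the WT-specific region 16 (chr9:119978229-119978456) held 0.788 and 0.695 PPM in WT. No peak was listed there in either IRF8KO library, whose lowest summits within 10 kb were 0.165 and 0.151. Summits well below the WT level of this region were thus listed nearby in both IRF8KO libraries, though the background at those sites may differ. The IRF8KO-specific regions 12 and 14, at 0.292 and 0.181 and at 0.292 and 0.378 PPM, were low, and the lowest WT summits within 10 kb were 0.341 and 0.405 in replicate 1 and 0.123 in replicate 2 for both. In WT replicate 1 peaks of that height could therefore have gone unlisted. The Csrnp1 promoter (region 21), shared with the antisense RNA 1700019L13Rik, held 2.11 and 1.94 in WT and 1.36 and 1.75 in IRF8KO and overlapped on relative pileup. The promoter shared by Wdr48 and Gm2449 (region 1), at 4.11 and 3.54 in WT and 2.79 and 3.20 in IRF8KO, did so too. Gm47043, Gm49427 and Xirp1 had no strict region within 1 kb of a start, although region 23 touched an exon of Gm49427.

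Matches to the motifs within 100 bp of the summit were counted in the 50 regions and set beside all 155546 regions over windows of the same length. The ETS-IRF motif matched in 2 regions, or 4%, against 4.30% of all regions, a share close to the background. Both of its regions, 16 and 50, were lower or unlisted in IRF8KO. Genome-wide it matched in 18.7% of the WT-specific class and 1.83% of the IRF8KO-specific class. The ISRE matched in none, against 0.876%. PU.1, AP-1 and CEBP matched in 2 regions each, against 7.74%, 5.91% and 9.54%, and MAF in 1, against 5.02%. RUNX and the E-box matched in 5 regions each, or 10%, against 2.18% and 4.09%. The E-box regions included region 4, which was higher in IRF8KO, and regions 2 and 44, which were lower, so that motif marked no single direction.

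Promoters of genes with related roles were compared at the same scale. The fractalkine pathway list comprised the ligand Cx3cl1, the proteases Adam10, Adam17 and Ctss, the G-protein subunits Gnai2, Gnai3 and Gnb1, and the arrestin Arrb2. All 8 had a shared promoter region, of which 5 were lower in IRF8KO and none was higher. Of all shared promoters 39.9% were lower and 3.85% higher. The list's median log2 difference of -0.41 was near the -0.33 of all shared promoters, and the extremes were Gnb1 at -1.37 and Cx3cl1 at -0.04. On relative pileup 3 were lower and 1 higher, against 26.6% and 22.2% of all shared promoters.

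Of 12 genes of homeostatic microglia, 11 had a shared promoter region, of which 5 were lower and 1 higher, with a median log2 difference of -0.61, against 39.9% lower and 3.85% higher among all shared promoters. On relative pileup 7 were lower and 2 higher, against 26.6% and 22.2%. The purinergic receptor P2ry12 was lowest among the shared ones at -1.54, with 3.73 and 2.37 for WT and 0.749 and 1.39 for IRF8KO. The extracellular matrix gene Olfml3 was highest at 1.01. The promoter region of Sall1, a transcription factor of microglial identity, held 2.17 and 2.05 in WT, had a weak peak of 0.136 in IRF8KO replicate 2 and was not listed in replicate 1. The Cx3cr1 promoter, at -0.78, lay within the range of these genes.

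The receptor family differed in which promoters were open. Of 16 other chemokine receptor genes, 8 had no strict promoter region, and 7 had a shared one, of which 2 were lower and 4 higher in IRF8KO, with a median of 0.45. Of 21810 protein-coding genes 68.6% had a strict promoter region, and of the shared ones 39.9% were lower and 3.85% higher. On relative pileup 1 was lower and 4 were higher, against 26.6% and 22.2%. The scavenging receptor Ackr3 was highest at 0.99, with 0.618 and 0.368 PPM for WT and 0.838 and 1.07 for IRF8KO. The promoter region of Cxcr5 was WT-specific. The Cx3cr1 promoter was higher than that of every other gene of the list in all 4 libraries.

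**Figure D4:**
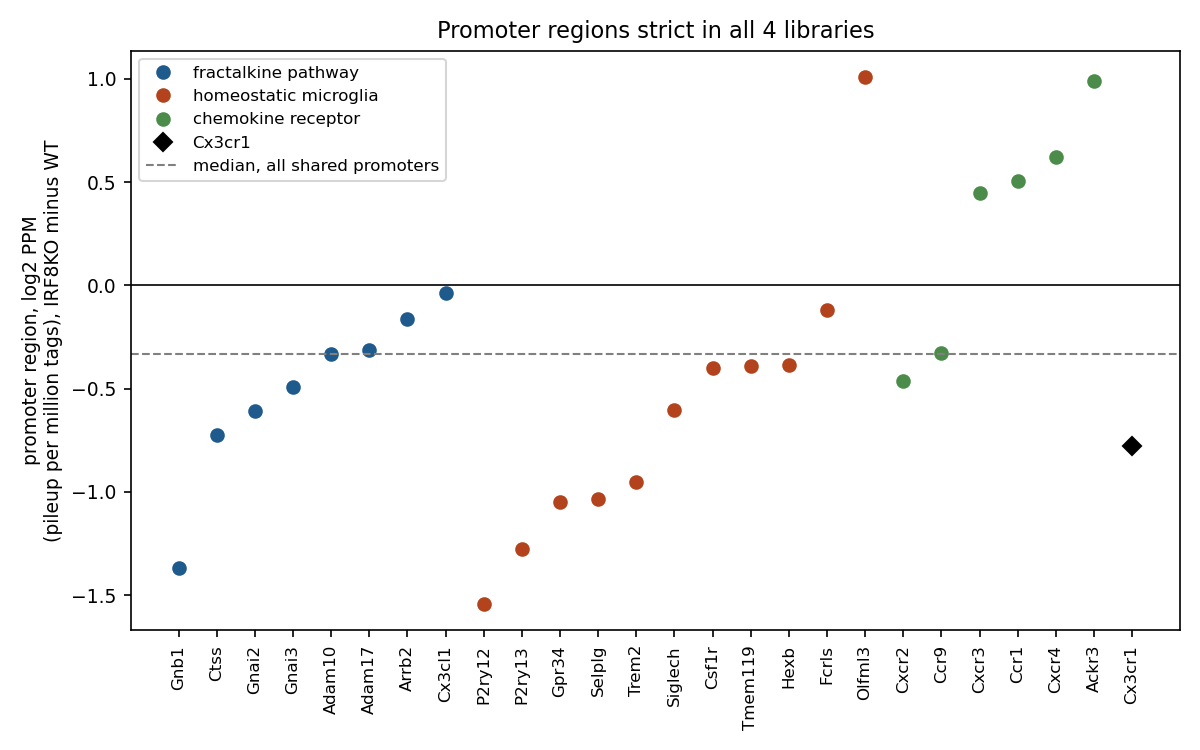
Difference in log2 PPM, IRF8KO minus WT (vertical axis), of the promoter regions of the genes on the horizontal axis, strict in all 4 libraries and grouped by list, with the Cx3cr1 promoter as a black diamond and the median of all 12547 shared promoters as a dashed line. Cx3cr1 lies at -0.78, P2ry12 is the lowest drawn at -1.54 and Olfml3 the highest at 1.01; Sall1 is not drawn because its promoter region was not strict in all libraries.

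The promoters most like that of Cx3cr1 over the 4 libraries, by Euclidean distance of the log2 levels among 12541 other promoters, were those of St6galnac4 at 0.109, Tnrc6c at 0.136, Cd300c2 at 0.142, and Timm29 and Yipf2 at 0.145. The last pair share 1 region. All 5 genes were picked for promoter closeness over these libraries, so each had WT replicate 1 highest and IRF8KO replicate 1 lowest, as in Cx3cr1. St6galnac4 held 4.43 and 2.82 PPM for WT and 1.66 and 2.78 PPM for IRF8KO. This likeness is over 4 libraries only.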

How the data were processed

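ATAC-seq peak lists of 4 libraries were used, 2 per genotype, grouped by the labels. Reads were aligned to mm10 with Bowtie2, per the submitters' processing notes, which also name bcl2fastq and deepTools. The authors ran MACS 2.1.1.20160309 on each library by itself, per the file headers, with no control sample and a p cutoff of 0.01, with cut sites shifted by -37 bp and extended to 73 bp, duplicates kept and a local background over 10 kb. The deposited pileup is a signal, the number of extended cut sites stacked at a summit. The deposited fold enrichment is a ratio to the local background, and the deposited p and q are −log10 values. A header line calls q uncalculated, yet that column holds values rising with p, and it set the strict threshold. Peak scores are the authors'.

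Python 3.11.15, numpy 2.4.6, pandas 2.3.3 and matplotlib 3.10.9 were used. Strict peaks (−log10 q of 2 or more) on 20 chromosomes were merged on an overlap of 1 bp. Pileup was divided by the header tags and multiplied by 1000000 (PPM), which assumes that pileup scales with tag number. Regions described singly were picked after their values were seen. Genes named were Cx3cr1, all protein-coding or long non-coding genes in the window, the 5 promoters most like it, and the extremes of 3 lists. Some genes of the lists are not reported here by name or drawn, and the list counts include them. A promoter region is the region within 1 kb of a start that was strict in the most libraries. Ties went to the highest mean PPM. The Cx3cr1 promoter was matched by symbol in a RefSeq table, and its sequence is not shown because it overlaps an untranslated exon. The members and lists were chosen with earlier results of these data known. Merging and classes were tested on simulated data. Alternatives were a stricter q, all deposited peaks, other windows, scales and overlaps, and each library left out.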

Additional observations from a re-analysis of the deposited data

How the results depend on the processing

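No paired analysis was possible because the results come from no test and replicate numbers pair no libraries in the labels. The difference in strict peaks (-6) was -2.5 at −log10 q of 5, and -7.5 to -4.5 with a library left out. The 2 WT-specific regions became 1 at −log10 q of 5, with a 10 kb flank, or with the RefSeq gene plus 50 kb (a window chosen after seeing the data), 4 where absent meant no strict peak, 5 with every deposited peak, and 2 to 7 with a library left out (7 without WT replicate 2, 4 without IRF8KO replicate 2). The 3 IRF8KO-specific regions became 1 at −log10 q of 5 and in the RefSeq window, 5 with every deposited peak, and 3 to 4 with a library left out. The promoter difference (-0.78) reversed to 0.11 on fold enrichment and ranged from -1.13 to -0.43 with a library left out. The median over shared window regions (-0.46) was -0.12 on fold enrichment and ranged from -0.70 without IRF8KO replicate 2 to -0.17 without IRF8KO replicate 1. The cause of these changes was not tested. The 2 ETS-IRF regions stayed 2 in all 7 alternatives. For 9 regions named with a direction (2, 4, 8, 27, 30, 40, 44, 49 and 50), 63 alternative values kept their sign. These values were chosen after seeing the data, and 9 moved by more than the spread between replicates. Other regions were compared across the scales only. Among them, regions 7, 31, 33 and 37 kept their sign. Regions 29 and 43 went from -0.11 and -0.55 in PPM to 0.47 and 0.33 on fold enrichment. Depth and local background limit what absence means, since a low summit may go unlisted. The lowest summit listed nearby is not a fixed limit, because the background differs between sites.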
